A study of Homo sapiens with 12 samples.

Results

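KAT8, MSL1, MSL2 and MSL3 encode the subunits of the human MSL (male-specific lethal) histone acetyltransferase complex. They were taken by name, and each was read from its brightest probe set by mean over 12 arrays, which made 4 genes of 14884 tested. The arrays held RNA from Ishikawa, an endometrial adenocarcinoma cell line of epithelial origin, in 4 groups of 3 arrays. These were cells with a short hairpin called shMOF in the condition labelled ERα(-), control cells in ERα(-), shMOF cells in ERα(+) and control cells in ERα(+). MOF is another name of the KAT8 protein, and ESR1 is the gene of the oestrogen receptor ERα. The hairpin's sequence and vector, whether the cells were 1 clone, what the control cells carried, what was done to obtain ERα(-) or ERα(+), and whether replicates were separate cultures is not given in the sources used here. Where replicates came from 1 culture, the spread behind each p-value is technical.

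The KAT8 protein is a lysine acetyltransferase of the MYST family that places an acetyl group on a lysine in the tail of histone H4, a mark that loosens contacts between nucleosomes. It works in 2 assemblies: the MSL complex, first known from the doubling of transcription of the male X chromosome in Drosophila, and the NSL complex, found mainly at promoters of housekeeping genes. Within MSL, the MSL1 protein is the scaffold that binds the other subunits, MSL2 is a RING-type E3 ubiquitin ligase that ubiquitinates histone H2B, and MSL3 is a chromodomain protein that, like KAT8, docks on the scaffold.

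Each of the 4 genes had 1 named probe set on the array. KAT8 (probe set 16818184) lies on chromosome 16 from 31117664 to 31131393, MSL1 (16833983) on chromosome 17 from 40121971 to 40136917, MSL2 (16959522) on chromosome 3 from 136148917 to 136196335, and MSL3 (17101465) on chromosome X from 11758159 to 11775772, all as gene bounds in GRCh38.p14. The annotated bounds of MSL2 overlap those of CRIPTOP6, so its signal cannot be assigned to MSL2 alone if the probes lie in the shared stretch, which was not checked. For MSL1, MSL2 and MSL3, RefSeq promoter sequences of GRCh38.p14 were available. They are shown because the study sets ERα conditions against each other, so that a reader can see which sequence lies before each gene start. Each sequence is the 250 bases before the gene start, 5′ to 3′ on the gene's strand: chr17:40121721-40121970 (plus strand) for MSL1, chr3:136196336-136196585 (minus strand) for MSL2 and chrX:11757909-11758158 (plus strand) for MSL3. Capitals mark the GC box GGGCGG, read on both strands, with overlapping matches joined.
MSL1: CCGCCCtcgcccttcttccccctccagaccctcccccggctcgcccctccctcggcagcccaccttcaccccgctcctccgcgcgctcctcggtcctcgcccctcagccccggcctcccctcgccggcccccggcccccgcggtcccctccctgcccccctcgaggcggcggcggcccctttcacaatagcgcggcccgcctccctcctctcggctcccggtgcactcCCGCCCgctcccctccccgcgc
MSL2: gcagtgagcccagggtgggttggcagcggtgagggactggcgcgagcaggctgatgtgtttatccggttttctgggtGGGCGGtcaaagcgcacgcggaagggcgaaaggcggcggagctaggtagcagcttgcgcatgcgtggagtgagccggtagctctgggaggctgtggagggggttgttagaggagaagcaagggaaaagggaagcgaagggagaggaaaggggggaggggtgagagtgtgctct
MSL3: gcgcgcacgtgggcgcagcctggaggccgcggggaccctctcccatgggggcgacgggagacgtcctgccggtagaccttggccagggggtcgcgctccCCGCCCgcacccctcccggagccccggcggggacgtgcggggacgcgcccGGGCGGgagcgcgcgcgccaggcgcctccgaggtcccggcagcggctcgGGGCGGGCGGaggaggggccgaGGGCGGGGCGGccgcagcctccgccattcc
MSL3 had 6 GC boxes, MSL1 had 2 and MSL2 had 1, and 41.7% of 24885 RefSeq promoters of the same length held at least 1. The MSL3 sequence was 82.4% G or C with 39 CpG pairs, MSL1 80% with 30, and MSL2 62.8% with 15, beside medians of 57.6% and 10 over all promoters. The oestrogen response element, as GGTCA and TGACC with any 3 bases between them, was found in 0 of these 3 sequences and in 0.0482% of all promoters, and its half-site AGGTCA in 0 of 3 and in 12.3% of all promoters, both searched on both strands. These counts describe only the letters in this window.

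All 4 genes gave signals above the median of the tested genes, which was 5.66 on the log2 scale. On these arrays the values are log2 signals after RMA, the authors' background correction, normalization and probe summary. Over the 12 arrays the lowest and highest values differed by 0.42 for KAT8 (1.34-fold), 0.29 for MSL1 (1.22-fold), 0.54 for MSL2 (1.46-fold) and 0.63 for MSL3 (1.54-fold). The median range of the 7442 genes at or above the median level was 0.65. The SD over 12 arrays was 0.11 for KAT8, 0.099 for MSL1, 0.13 for MSL2 and 0.17 for MSL3, against a median of 0.19 over those 7442 genes. This placed the SD at the 11.5th percentile of those genes for KAT8, the 7.38th for MSL1, the 18.8th for MSL2 and the 38.6th for MSL3.

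**Figure D1:**
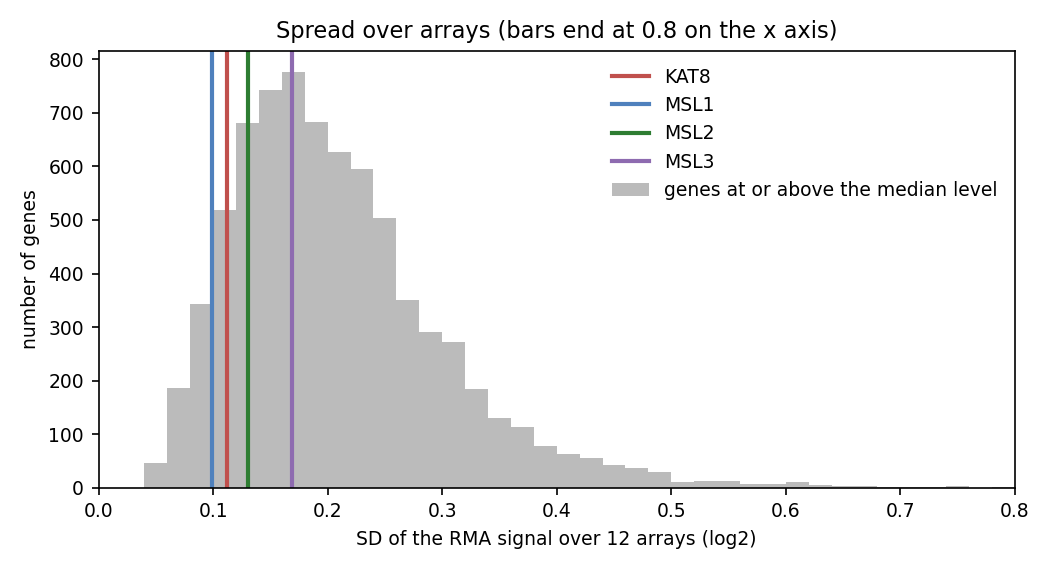
Histogram of the SD of the log2 RMA signal over 12 arrays (x axis) for the 7442 genes at or above the median level (y axis, number of genes), with a vertical line for each subunit of the MSL complex. All 4 lines stand left of the median gene, which had an SD of 0.19.

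The checks of the arrays bear on every comparison. Of the epithelial markers, 5 of 7 were measured and all 5 lay above the median level, with an array mean of 9.14 to 9.63, EPCAM highest at 11.5 and KRT8 lowest at 6.49. For shMOF minus control in ERα(+), KRT18 was at -0.43 (limma, unadjusted p = 0.011, adjusted p = 0.223) and KRT19 at -0.38 (adjusted p = 0.336). Their groups did not overlap, which held for 26.2% of all genes there. EPCAM, KRT8 and PAX8 were at -0.07, -0.34 and 0.03, with overlapping groups. The 2 measured of 6 fibroblast and stroma markers, DCN and LUM, lay at 2.06 and 2.20 (array mean 1.97 to 2.32). Of 5 immune markers 3 were measured, with an array mean of 4.41 to 4.98, and 1 of the 3, the lysosomal protein gene CD68, lay above the median level at 7.03. CD68 averaged 7.20 in shMOF ERα(-) and 6.68 in control ERα(-) (difference 0.52, limma, adjusted p = 0.953), and 6.83 in shMOF ERα(+) and 7.41 in control ERα(+) (-0.58, adjusted p = 0.262), with an interaction of -1.098 (unadjusted p = 0.0113, adjusted p = 0.219). The CD68 interaction was called without shMOF ERα(-) replicate 2 (adjusted p = 0.0222) and with array quality weights (adjusted p = 0.0211), and its part in the members' values was not tested. These settings called 570 and 3258 of all 14884 genes for the interaction. CD14 and LYZ, the other immune markers measured, did not share the CD68 pattern. For shMOF minus control CD14 was at -0.20 in ERα(-) and -0.29 in ERα(+) (limma, adjusted p = 0.953 and 0.318). LYZ was at -0.11 and 0.13, each within 1 SE of 0. Of 3 endothelial markers 2 were measured, with an array mean of 4.24 to 4.67, both below the median level. For shMOF minus control in ERα(-), PECAM1 was at 0.49 (limma, unadjusted p = 0.0439, adjusted p = 0.953), with overlapping groups. VWF was at -0.08 there, within 1 SE of 0. In ERα(+) both were within 1 SE of 0. ESR1 averaged 4.27 ± 0.0068 in shMOF ERα(+) and 4.42 ± 0.092 in shMOF ERα(-), and 4.46 ± 0.17 in control ERα(+) and 4.28 ± 0.15 in control ERα(-) (SD, n = 3 each), below the median level in every group, so the ESR1 signal did not order the arrays by their ERα label. The first principal component, the axis along which the arrays differed most, held 36.8% of the variance, with control ERα(+) replicate 3 and shMOF ERα(+) replicate 2 at its ends. It was taken without subtracting group means. On it the control ERα(+) arrays lay at 13.3, 3.6 and 32.94, and the shMOF ERα(+) arrays at -4.4, -29.81 and -9.85. The control ERα(-) arrays, at -4.22, -3.58 and -11.9, also lay below every control ERα(+) array. The shMOF ERα(-) arrays lay at 22.28, -18.04 and 9.68. Adjusting for this component therefore also takes out part of the difference between control ERα(+) and the shMOF ERα(+) or control ERα(-) group. With the component as a covariate, the CD68 interaction was -0.35 (limma, adjusted p = 0.965). The CD68 difference for shMOF minus control in ERα(+) was then -0.02.

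KAT8, the gene that the hairpin is named after, showed no detectable fall on shMOF arrays in either condition. In ERα(-) its log2 signal was 6.78, 6.76 and 6.72 on the 3 shMOF arrays, against 6.76, 6.87 and 6.68 on the 3 control arrays. All 3 shMOF values lay inside the range of the control values. In ERα(+) it was 6.66, 6.66 and 7.02 on the shMOF arrays, against 6.80, 6.60 and 6.81 on the control arrays. Here the groups overlapped as well, and the highest of the 12 values, 7.02, belonged to an array labelled shMOF (replicate 3). Since the KAT8 signal did not separate shMOF from control arrays, the group names throughout are those of the labels, and each direction is between arrays so labelled.

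KAT8 averaged 6.75 ± 0.034 in shMOF ERα(-) and 6.77 ± 0.095 in control ERα(-), and 6.78 ± 0.21 in shMOF ERα(+) and 6.74 ± 0.12 in control ERα(+) (SD, n = 3 each). The means ran, from high to low, through shMOF ERα(+), control ERα(-), shMOF ERα(-) and control ERα(+), and no neighbours in that order differed beyond their spread. The shMOF minus control difference, averaged over both conditions, was 0.01 ± 0.089 (SE) with a 95% interval from -0.18 to 0.20 (limma, adjusted p = 0.978). The interval runs from a change of -11.7% to one of 15.2% in signal. An exact permutation of the labels within each condition gave p = 0.9, two-sided, where 0.005 is the smallest p that its 400 arrangements allow. Without shMOF ERα(+) replicate 3, the difference in ERα(+) was -0.08 in place of 0.04. RNA level and protein level are different quantities, and KAT8 protein was not measured here. In bulk RNA, fewer cells with the transcript and less of it in each cell cannot be told apart.

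**Figure D2:**
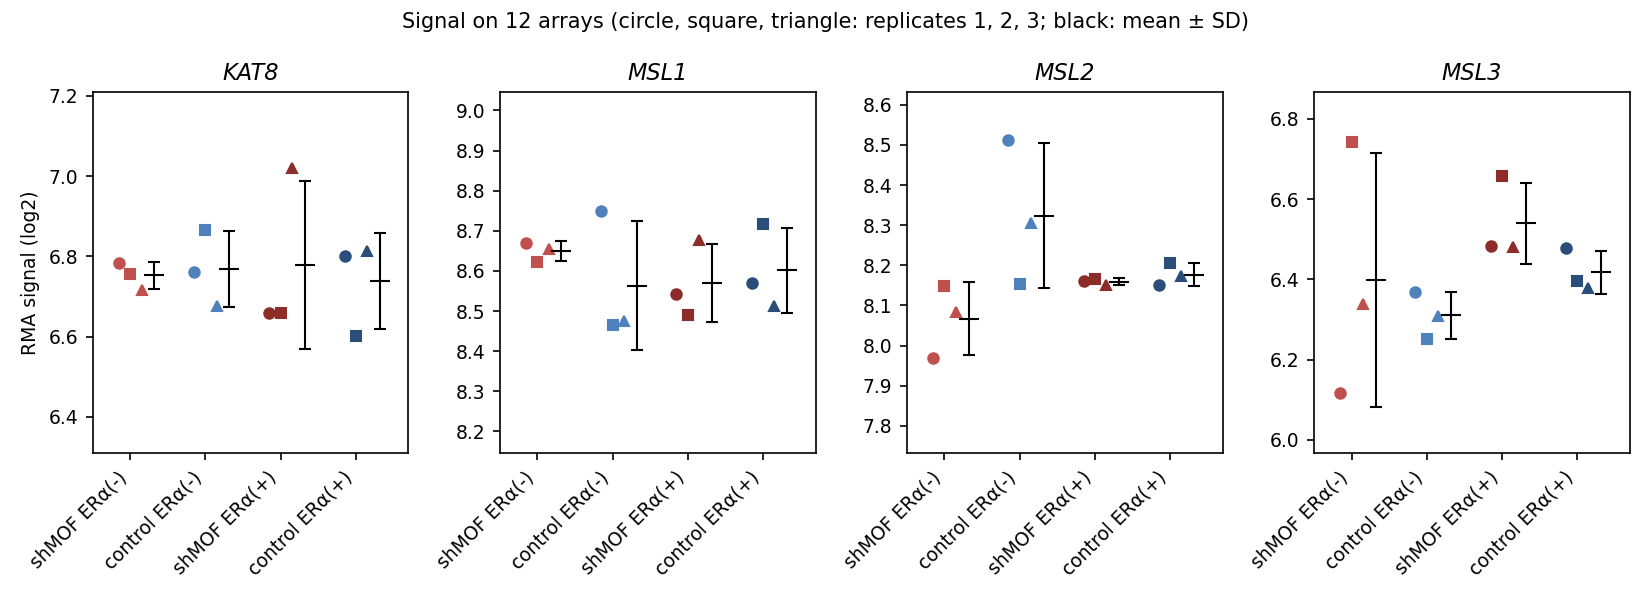
Log2 RMA signal (y axis) of KAT8, MSL1, MSL2 and MSL3 on each of 12 arrays in the 4 labelled groups (x axis), where symbols are replicates and black lines the mean ± SD of 3 arrays. KAT8 values on shMOF arrays overlap those on control arrays in both conditions, and the lowest and highest MSL3 values both stand in shMOF ERα(-).

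MSL1, the scaffold, varied less over the arrays than the other subunits. Its signal was 8.67, 8.62 and 8.66 in shMOF ERα(-), against 8.75, 8.46 and 8.48 in control ERα(-). In ERα(+) it was 8.54, 8.49 and 8.68 on shMOF arrays, against 8.57, 8.72 and 8.51 on control arrays. The groups overlapped in both conditions. MSL1 averaged 8.65 ± 0.025 in shMOF ERα(-) and 8.56 ± 0.16 in control ERα(-), and 8.57 ± 0.097 in shMOF ERα(+) and 8.60 ± 0.11 in control ERα(+) (SD, n = 3 each). From high to low the order was shMOF ERα(-), control ERα(+), shMOF ERα(+) and control ERα(-), with no neighbours apart beyond their spread. The shMOF minus control difference over both conditions was 0.03 ± 0.083 (SE), with an interval from -9.92% to 15.4% in signal (limma, adjusted p = 0.947; exact permutation p = 0.635).

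MSL2, the ubiquitin ligase, gave the largest of the members' differences, in ERα(-). Its signal was 7.97, 8.15 and 8.08 on the shMOF arrays, against 8.51, 8.15 and 8.31 on the control arrays. The shMOF values all lay below the control values, but the highest shMOF array and the lowest control array were only 0.0054 apart. The difference was -0.26 ± 0.12 (SE), or 0.837 times the control signal, with a 95% interval from -0.51 to -0.01. The unadjusted limma p was 0.0427 and the adjusted p was 0.953. An unadjusted p below 0.05 was reached by 4.78% of all genes in this comparison. The value depended on the control arrays: it was -0.16 without control ERα(-) replicate 1 and -0.34 without control ERα(-) replicate 2.

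In ERα(+), MSL2 was at 8.16, 8.17 and 8.15 on shMOF arrays, against 8.15, 8.21 and 8.17 on control arrays. These 6 values were close together and overlapped, with a difference of -0.02 and a 95% interval from -0.27 to 0.23 (limma, adjusted p = 0.949). The interaction, the shMOF effect in ERα(+) less the effect in ERα(-), was 0.24 ± 0.16 (SE), with an interval from -0.11 to 0.59 (limma, adjusted p = 0.438), so the 2 conditions were not shown to differ. Averaged over both conditions the shMOF minus control difference was -0.14 ± 0.081 (limma, adjusted p = 0.869). The exact permutation test within conditions gave p = 0.03, unadjusted, for that mean, the lowest of the 8 such tests run on the 4 genes. MSL2 averaged 8.07 ± 0.091 in shMOF ERα(-) and 8.32 ± 0.18 in control ERα(-), and 8.16 ± 0.0082 in shMOF ERα(+) and 8.18 ± 0.028 in control ERα(+) (SD, n = 3 each). From low to high the order was shMOF ERα(-), shMOF ERα(+), control ERα(+) and control ERα(-), with each neighbour within the larger of the SDs beside it except shMOF ERα(-) and shMOF ERα(+), whose means were 0.09 apart. The SD of MSL2 was lower in both ERα(+) groups than in both ERα(-) groups, and this difference in spread was not tested.

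MSL3, the chromodomain subunit and the X-linked member, varied most between replicates of 1 group. Its signal in shMOF ERα(-) was 6.12, 6.74 and 6.34, against 6.37, 6.25 and 6.31 in control ERα(-). The lowest and the highest of all 12 values were both in that shMOF group. The difference was 0.09 ± 0.14 (SE; limma, adjusted p = 0.963), and it was -0.08 without shMOF ERα(-) replicate 2 and 0.23 without replicate 1 of the same group. In ERα(+) MSL3 was at 6.48, 6.66 and 6.48 on shMOF arrays, against 6.48, 6.40 and 6.38 on control arrays. The 3 shMOF values lay above the 3 control values by a gap of 0.0019 at the nearest pair, and the difference of 0.12 was within 1 SE of 0 (limma, adjusted p = 0.656). Over both conditions it was 0.11 ± 0.10 (SE), with an interval from -7.51% to 25.2% in signal (adjusted p = 0.873; exact permutation p = 0.32). MSL3 averaged 6.40 ± 0.32 in shMOF ERα(-) and 6.31 ± 0.058 in control ERα(-), and 6.54 ± 0.10 in shMOF ERα(+) and 6.42 ± 0.054 in control ERα(+) (SD, n = 3 each). From high to low the order was shMOF ERα(+), control ERα(+), shMOF ERα(-) and control ERα(-), and only the first pair of neighbours was further apart than the larger SD of the pair, with the difference and p given above.

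Of the 4 genes, MSL3 had the largest correlation with the axis of whole-array differences, which did not pass adjustment. Over the 12 arrays its correlation with the first principal component was r = -0.61 (permutation p = 0.0359, adjusted p = 0.144 over the 4 members) and rho = -0.55 (permutation p = 0.0719, adjusted p = 0.288). Without the 2 arrays farthest from the median of the component, r was -0.56. That component separated shMOF from control arrays in ERα(+), and ERα(+) from ERα(-) among control arrays. Values adjusted for it therefore cannot tell whole-array differences from group differences. With that component as a covariate, a setting chosen after seeing the data, the MSL3 difference for shMOF minus control in ERα(+) was -0.18 in place of 0.12, and over both conditions 0.009 in place of 0.11. For ERα(+) minus ERα(-) it was -0.05 in place of 0.14 on shMOF arrays and 0.33 in place of 0.11 on control arrays (limma, unadjusted p = 0.0198, adjusted p = 0.643). Without the 2 arrays at its ends the shMOF minus control difference in ERα(+) was 0.04. For KAT8, MSL1 and MSL2, r with the component was 0.16, 0.16 and -0.30.

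Between the conditions, ERα(+) against ERα(-), 0 of the 4 genes passed the test. Over both genotypes the difference was -0.001 for KAT8 (95% interval -12.5% to 14.1% in signal), -0.02 for MSL1, -0.03 for MSL2 and 0.13 for MSL3 (-6.29% to 26.8%), each with an adjusted p of 1 in limma. The exact permutation p within genotypes was 0.975 for KAT8, 0.715 for MSL1, 0.705 for MSL2 and 0.23 for MSL3. On shMOF arrays the lowest MSL2 value in ERα(+) exceeded the highest in ERα(-) by 0.0025, and the difference of 0.09 was within 1 SE of 0 (limma, adjusted p = 0.808). The MSL3 value over both genotypes was 0.05 without shMOF ERα(-) replicate 1 and 0.21 without replicate 2 of that group. On control arrays the MSL2 difference was -0.15 (adjusted p = 0.582), with overlapping groups, and it was -0.05 without control ERα(-) replicate 1 and -0.23 without replicate 2 of that group. The test of a difference between the genotypes is the interaction of 0.24 for MSL2 above. The 3 MSL3 values of control ERα(+) lay above those of control ERα(-) by a gap of 0.012 at the nearest pair, and the difference of 0.11 was within 1 SE of 0 (adjusted p = 0.757).

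Across all 7 comparisons and 4 genes there were 28 differences, of which 22 were within 1 SE of 0 and 27 had a 95% interval that spanned 0. The largest was 0.26 in size, the MSL2 value in ERα(-), and 0 of 28 passed an adjusted p of 0.05 in limma. The share of all 14884 genes called at that level was 0% in each of the 7 comparisons, and the count for the members was the same, 0 of 4. At an unadjusted p below 0.05 the members passed once, against shares of all genes of 4.78% (ERα(-)), 18.7% (ERα(+)) and 4.62% (mean of both) for shMOF minus control, 5.33% (shMOF arrays), 12.7% (control arrays) and 3.41% (mean of both) for ERα(+) minus ERα(-), and 18% for the interaction. Groups that did not overlap were seen for 1 of 4 members (25%) in each pairwise comparison, against 8.76% (ERα(-)) and 26.2% (ERα(+)) of all genes for shMOF minus control, and 9.51% (shMOF arrays) and 19.3% (control arrays) for ERα(+) minus ERα(-). With 3 arrays against 3, an exact test of 1 gene cannot go below p = 0.1.

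**Figure D3:**
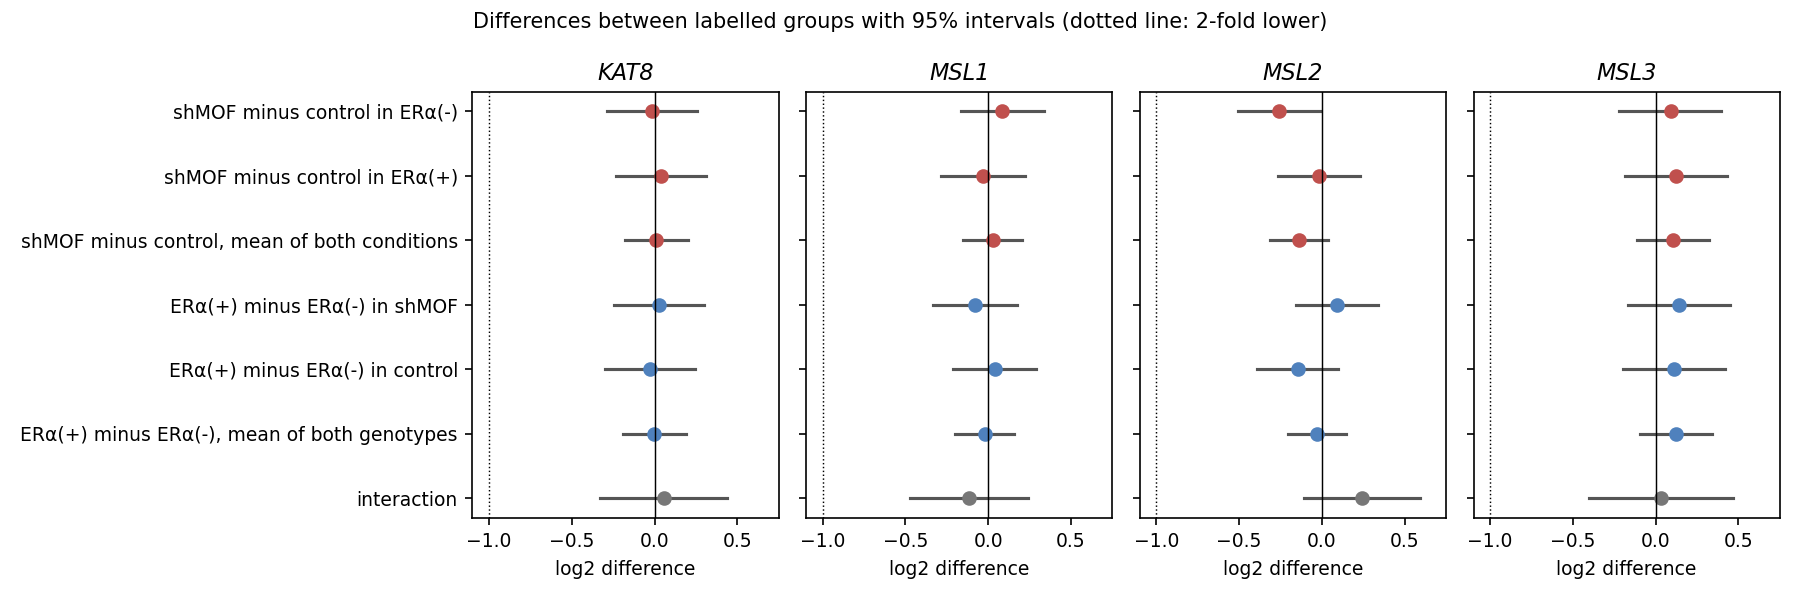
Log2 differences (x axis) of the 4 genes in the 7 comparisons (rows), with 95% intervals from limma over 12 arrays. Every interval except that of MSL2 for shMOF minus control in ERα(-) spans 0, and none of the intervals for shMOF minus control reaches a halving of signal, marked by the dotted line at -1.

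No pair of the 4 subunits had a correlation over the arrays that passed the test. The 6 pairwise correlations over 12 arrays lay between r = -0.15 for KAT8 with MSL2 and r = 0.15 for MSL1 with MSL2 (permutation p, adjusted over 6 pairs, 0.841 for each; rho between -0.33 and 0.056, adjusted p = 0.991 for each). After subtracting group means, r was 0.59 for MSL1 with MSL2 (exact permutation p = 0.251, adjusted p = 0.604) and 0.53 for MSL2 with MSL3 (exact permutation p = 0.0424, adjusted p = 0.254). Before group means were subtracted, those pairs stood at r = 0.15 and 0.11 over all 12 arrays. Without the 2 arrays farthest from the median of the first-named gene of the pair, MSL1 or MSL2, these became -0.51 and -0.22. Arrays far from the median of the other gene were not left out in turn. The values with group means subtracted were not recomputed without such arrays.

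The genes whose signals followed each subunit most closely were found among 7441 others at or above the median level, by Pearson's r over the same 12 arrays. For KAT8 they were EPDR1 at r = 0.88, TPSB2 at 0.85 and IFITM3 at 0.81, and for MSL1 ZNF442 at 0.87, BUD13 at 0.82 and DHX32 at 0.81. For MSL2 they were ZBTB44 at 0.89, SUPT7L at 0.87 and GOLPH3 at 0.87, and for MSL3 MIR4324 at 0.93, USP40 at 0.90 and OSBPL1A at 0.90. None of these was another subunit or a gene of the related lists below. The median gene at this level had a closest partner at r = 0.95, so the best partners of KAT8, MSL1, MSL2 and MSL3 stood at the 14.4th, 12.9th, 17.9th and 41.2nd percentile of best partners. These correlations describe shared variation of 12 arrays, whose signals share labelling and normalization.

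The NSL complex, the other assembly that holds KAT8, was measured with 8 of 8 listed genes, and 0 passed the test over both conditions. Of these 8, 3 were above 0 in shMOF minus control, with a median of -0.06, beside 45.1% above 0 and a median of -0.02 over all genes. OGT, the enzyme that attaches N-acetylglucosamine to proteins, was at 0.16 ± 0.088 (SE), MCRS1 at -0.11 ± 0.12 and PHF20, a reader of methylated lysine, at -0.09 ± 0.092. Values within a condition lay on both sides of 0. In ERα(+) OGT was at 0.37 ± 0.12 (unadjusted p = 0.0101, adjusted p = 0.223 in limma), while MCRS1 was at -0.40 ± 0.16 (adjusted p = 0.237) and HCFC1, a transcriptional cofactor that was singled out after its values were seen, at -0.31 ± 0.14 (adjusted p = 0.256). These were the 3 NSL genes of 8 with an unadjusted p below 0.05 there, or 37.5%, against 18.7% of all genes. With array quality weights OGT and MCRS1 were called in ERα(+), at 0.47 (adjusted p = 0.0224) and -0.45 (adjusted p = 0.0301). In that comparison the same weights called 1629 of all 14884 genes. Adjusted for the first principal component, OGT was at 0.17, MCRS1 at -0.05 and HCFC1 at -0.08, each with an adjusted p of 0.999. Since that component separated shMOF from control arrays in ERα(+), these values cannot tell whole-array differences from the shMOF difference. In ERα(-) it was 1 of 8, PHF20 at -0.29 ± 0.13 (adjusted p = 0.953), against 4.78%. With array quality weights PHF20 was at -0.11 in ERα(-) (limma, unadjusted p = 0.282, adjusted p = 0.506).

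Among the other MYST acetyltransferases 3 of 4 were measured and 0 passed. KAT5, the catalytic subunit of the TIP60 complex, was at -0.11 ± 0.10 (SE), KAT6B at 0.15 ± 0.15 and KAT7, the catalytic subunit of HBO1 complexes, at -0.04 ± 0.075 over both conditions. The list's median was -0.04, with 1 of 3 above 0. The enzymes that remove acetyl groups from histones were measured with 6 of 6 listed genes, 3 above 0, with a median of -0.02 and 0 called. HDAC2, a class I deacetylase, was at 0.14 ± 0.11 from its brighter probe set and at 0.05 ± 0.088 as the mean of its probe sets. SIRT3, a mainly mitochondrial deacetylase, was at -0.14 ± 0.11 and HDAC3 at -0.08 ± 0.11. SIRT1, a nuclear deacetylase whose targets include the acetylated lysine of histone H4, was singled out after its values were seen. It averaged 7.995 on shMOF arrays and 8.37 on control arrays in ERα(-), a difference of -0.38 ± 0.18 (limma, unadjusted p = 0.0608, adjusted p = 0.953), and 8.23 on shMOF arrays and 7.79 on control arrays in ERα(+), a difference of 0.44 ± 0.18 (unadjusted p = 0.0316, adjusted p = 0.242). The interaction for SIRT1 was 0.81 ± 0.26 (unadjusted p = 0.00747, adjusted p = 0.219), and ERα(+) minus ERα(-) on control arrays was -0.58 (unadjusted p = 0.00735, adjusted p = 0.333). Adjusted for the first principal component, with the same limit as for the NSL genes, the SIRT1 difference in ERα(+) was 0.04 and the interaction 0.28. The SIRT1 interaction was called with array quality weights (adjusted p = 0.0116) and without shMOF ERα(-) replicate 2 (adjusted p = 0.0409). These settings called 3258 and 570 of all 14884 genes for the interaction.

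UBE2A and UBE2B, conjugating enzymes that feed ubiquitin to histone H2B, were the 2 measured of 4 listed genes of that step, at -0.03 ± 0.097 and -0.04 ± 0.096 (SE) over both conditions. The paralogs of MSL3, MORF4L1 and MORF4L2, which share the MRG domain with it, were at 0.01 ± 0.074 and 0.08 ± 0.081. DHX9, an RNA helicase whose Drosophila counterpart (maleless) belongs to the MSL complex of that species, was at 0.16 ± 0.12. This list had a median of 0.08, with 3 of 3 above 0 and 0 called. The MSL genes themselves had a median of 0.02, with 3 of 4 above 0 and 0 called.

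**Figure D4:**
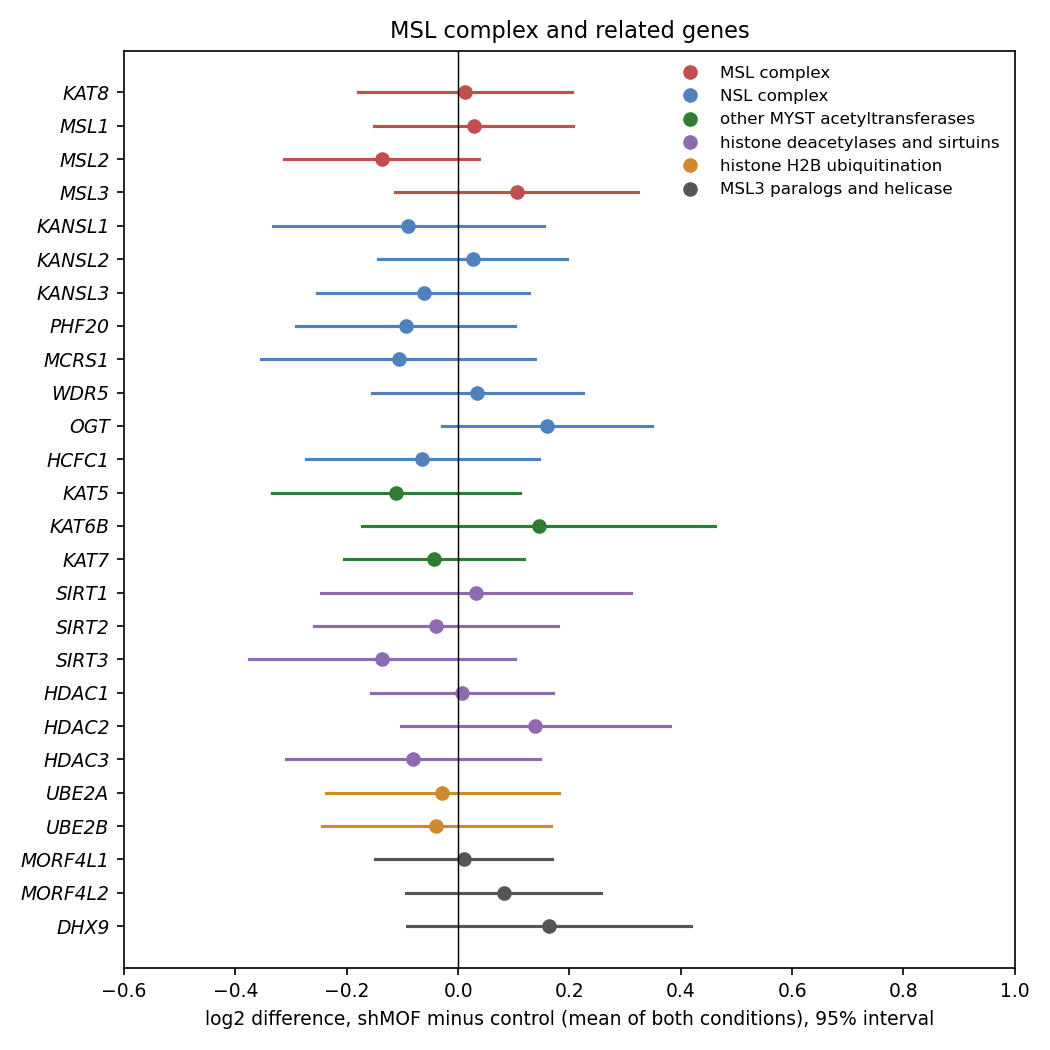
Log2 difference for shMOF minus control averaged over both conditions (x axis), with 95% intervals, for the 4 MSL genes and the 22 measured genes of the related lists (rows). Every interval includes 0, from OGT at 0.16 and DHX9 at 0.16 to MSL2 at -0.14.

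In Drosophila the MSL complex acts on the X chromosome, so X-linked genes were counted apart. Over both conditions the 569 X-linked genes had a median shMOF minus control difference of 0.003, with 50.4% above 0 and 0 called, beside -0.02 and 44.9% over 14302 autosomal genes. In ERα(-) the medians were -0.02 (46.6% above 0) for X-linked and -0.002 (49.5%) for autosomal genes, and in ERα(+) 0 (49.9%) and -0.04 (43.5%). The X-linked median was lower than the autosomal one in ERα(-) and higher in ERα(+), and these medians describe the arrays without a test.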

How the data were processed

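RNA was measured on 12 Affymetrix expression arrays, with 3 arrays in each of 4 groups taken from the sample titles. The submitters' processing notes name RMA and Affymetrix Expression Console 1.4.1, with which the authors made the deposited log2 signals. RMA evens out distributions between arrays, so a change shared by most genes cannot be seen, and it can compress differences of dim genes. No source used here gives the genome build or the probe annotation behind the values. Of 53617 probe sets, with 0 missing values, 16098 had 1 gene symbol in the platform annotation, 0 had several and 37519 are unnamed here. All 16098 matched a RefSeq gene (GRCh38.p14) by gene ID. For genes with several probe sets the one with the highest mean was kept, which left 14884 genes, and dim genes were not filtered out. Array medians were 4.53 to 4.59, and the number of arrays limits the precision.

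A mean per group was fitted with limma 3.58.1 in R 4.3.3 (lmFit, contrasts.fit, eBayes, two-sided; 8 residual and 5.6 prior degrees of freedom), with Benjamini-Hochberg adjustment over 14884 genes within each of 7 comparisons and calls at 0.05. Intervals are at 95%. A difference within 1 SE of 0 was given no direction. Single values were tested by exact permutation within strata, and correlations by 100000 permutations or, with group means subtracted, exactly within groups. The fit was tested on simulated data. The members, the related lists (NSL complex, other MYST acetyltransferases, deacetylases and sirtuins, histone H2B ubiquitination, MSL3 paralogs and helicase, X-linked and autosomal genes) and the markers of epithelial, stromal, immune and endothelial cells were chosen with earlier results of these data known. Genes named by rule were the members, ESR1, up to 3 genes per list with the smallest p over both conditions, and the 3 genes most correlated with each member. SIRT1, HCFC1 and the marker genes were named outside this rule, and their p-values take no account of that choice. Alternatives were every probe set, the mean of probe sets, a filter on dim genes, 2 further scalings, other variance models, array weights, only the groups compared, a replicate block, the sample code's letter as a random block, each array left out, and, added after seeing the data, the first principal component as a covariate, or its 2 end arrays left out.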

Additional observations from a re-analysis of the deposited data

How the results depend on the processing

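The 28 differences of the members were recomputed under 24 or 25 alternatives each, 688 values in all, and 0 of them passed an adjusted p of 0.05. An unadjusted p below 0.05 was reached by 18, of which 13 were MSL2 for shMOF minus control in ERα(-), where the difference ranged from -0.34 to -0.16 and the lowest adjusted p was 0.141, with array quality weights. A value stood on the other side of 0 in 41 cases over 15 of the 28 differences, each with a reported difference within 1 SE of 0: 23 for KAT8 (up to 0.095 in size), 10 for MSL1 (0.031), 1 for MSL2 (0.02) and 7 for MSL3 (0.38, the interaction adjusted for the first principal component). KAT5 over both conditions was at 0.003 with array quality weights in place of -0.11, and the cause was not tested. Array quality weights also called OGT (0.47) and MCRS1 (-0.45) for shMOF minus control in ERα(+), and SIRT1 (0.76) and CD68 (-0.94) for the interaction, which the reported fit did not, and the cause was not tested. The interaction was called without shMOF ERα(-) replicate 2 for SIRT1 (adjusted p = 0.0409) and CD68 (adjusted p = 0.0222) as well. Counts of all genes called, 0 in each comparison, depended on the setting. Array quality weights, which count arrays that depart from their group for less, gave 645 for shMOF minus control in ERα(-), 1629 in ERα(+), 1 over both conditions, 1918 for ERα(+) minus ERα(-) in shMOF, 217 in control, 12 over both genotypes and 3258 for the interaction; the cause was not tested. Only the groups compared gave 9 for ERα in control. With the 2 end arrays of the first principal component left out the counts were 1 for shMOF in ERα(+) and 1 for the interaction. The code letter as a random block gave 5 for the interaction (consensus correlation -0.15). Leaving out 1 array gave 0 to 5 for shMOF in ERα(-), 0 to 30 for shMOF in ERα(+), 0 to 11 for ERα in shMOF, 0 to 4 for ERα in control and 0 to 570 for the interaction, with the highest of each without shMOF ERα(-) replicate 2. Genes at an unadjusted p below 0.05 numbered 711 (292 to 3813 over the alternatives) for shMOF in ERα(-), 2787 (588 to 4762) in ERα(+), 687 (226 to 2364) over both conditions, 793 (321 to 4912) for ERα in shMOF, 1894 (1106 to 3687) in control, 507 (98 to 2108) over both genotypes and 2685 (758 to 5734) for the interaction.

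Whether the replicate numbers pair the samples is not known, and the reported fit did not pair them. Deviations from group means correlated at a median of 0.049 over 18 same-numbered array pairs, 5 of them over 0.1. Over 36 pairs with other numbers the median was -0.037, with 10 over 0.1. The highest values were 0.453 and 0.371. Of 12 arrays, 3 correlated best with an array of their own number. These correlations cannot decide on a pairing. With the replicate number as a block (replicate block), 2 genes were called for the interaction and 0 in the other comparisons, and no member's call changed.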
